A study of Mus musculus with 12 samples.

Results

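Injured alveolar type 2 (AT2) cells on their way to becoming alveolar type 1 cells pass through a transitional state that is named for its high Krt8. The RNA levels of 10 genes that mark this state were read in sorted mouse AT2 cells with and without bleomycin (BLM) injury, and with and without the autophagy gene Atg5. The genes were the keratins Krt7, Krt8, Krt18 and Krt19, and Sfn, Lgals3, Anxa1, Anxa2, Tnfrsf12a and S100a6. They were fixed by name and matched to the gene names of the expression table, where all 10 were found among 21878 genes. All 10 also passed the filter on low values (1 FPKM or more in 3 or more samples), which left 10675 genes to test. FPKM count fragments relative to transcript length and library size, so levels of different genes can be set side by side.

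The study compared 4 groups of 3 samples. AT2-PBS cells came from Atg5f/f mice, which carry Atg5 alleles that Cre can delete and which the labels call wild type, after PBS. AT2-BLM cells came from Atg5f/f mice after 2 U/kg BLM into the trachea, a drug that injures the alveolar epithelium. Atg5-/- AT2-PBS and Atg5-/- AT2-BLM cells came from Nkx2.1Cre;Atg5f/f mice after PBS or BLM. Nkx2.1-driven Cre acts throughout the lung epithelium and not in AT2 cells alone, and it acts from development on. The methods name male mice of 8 to 12 weeks, and the labels give the strain as C57BL/6. No day is named for Atg5-/- AT2-PBS, and day 14 after treatment is given for the remaining groups. The sort kept EpCAM+ cells and gated out those with CD31, CD34, CD45, CD24 or Sca-1. Whether the 3 samples of a group came from separate mice is not stated, so p-values measure the spread between these samples, which may be technical.

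Keratins form the intermediate filaments of epithelial cells, and each filament is built from pairs of an acidic type I and a basic type II keratin. KRT8 and KRT7 are type II and KRT18 and KRT19 are type I, and KRT8 with KRT18 is the pair of simple epithelia. SFN is the 14-3-3 protein of epithelial cells, a target of p53 that holds the cell cycle. LGALS3, galectin-3, binds sugars on glycoproteins. ANXA1 and ANXA2 bind membrane phospholipids in the presence of calcium, and S100A6 is a small calcium-binding protein. TNFRSF12A, also called Fn14, is the receptor for the cytokine TWEAK, which is encoded by Tnfsf12. After bleomycin injury these genes are known to mark cells that have left the AT2 state and have not yet become flat alveolar type 1 cells. Several of them, the keratins among them, are also expressed in airway, basal and mesothelial cells.

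Some features of the libraries bear on what follows. The absolute depth is unknown because the values are FPKM. The steps between low values gave rough relative depths, between 0.991 and 1.15 times that of AT2-PBS sample 1. These estimates rest on few genes, from 11 of 481 compared in AT2-PBS sample 2 to 43 of 821 in AT2-BLM sample 3. Atg5 lay between 6.72 and 10.1 FPKM in the Atg5-/- libraries and between 6.01 and 12.5 FPKM in the others, so FPKM over the whole gene do not show the deletion, and Atg5 loss here means the labelled genotype. Of the defining AT2 markers, Sftpa1 lay between 4967 and 13567 FPKM and Lamp3 between 304 and 765 FPKM in all libraries. Sftpc was listed at 0 in 11 libraries and at 112570 FPKM in AT2-BLM sample 2, whose FPKM sum to 549169. A listed 0 is therefore not read as absence of Sftpc RNA, and its origin was not tested. Atg5-/- AT2-PBS libraries carried RNA of other cells. Their 17 leukocyte markers summed to between 1233 and 2633 FPKM, against 29.6 to 170 FPKM in AT2-PBS. These markers summed to 190 to 285 FPKM in AT2-BLM and to 90.8 to 731 FPKM in Atg5-/- AT2-BLM. Fibroblast markers of the Atg5-/- AT2-PBS libraries summed to between 113 and 116 FPKM, against 5.74 to 15.8 FPKM in AT2-PBS, and the airway gene Scgb1a1 reached 83587 FPKM there. Liver and pancreas markers summed to between 2243 and 5593 FPKM in them and to 3102 FPKM in AT2-PBS sample 1, of which the insulin gene Ins2 made 1976, against 5.38 and 3.34 FPKM in AT2-PBS samples 2 and 3, 180 to 640 FPKM in AT2-BLM and 141 to 1001 FPKM in Atg5-/- AT2-BLM. Ly6a, which encodes the gated-out Sca-1, lay between 7.36 and 16.8 FPKM in AT2-PBS and between 63.1 and 984 FPKM in the other groups. Transcripts of the Y-linked gene Ddx3y were at 4.22 FPKM or more in 5 libraries (AT2-PBS 2 and 3, AT2-BLM 3 and Atg5-/- AT2-BLM 2 and 3) and at 0.173 FPKM or less in the other 7, although the methods name male mice.

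The genes lie on 8 chromosomes, and Krt8 and Krt18 are neighbours. In mm9, the build the authors aligned to, Krt8 spans chr15:101827142-101834773 on the minus strand and Krt18 spans chr15:101858647-101862457 on the plus strand, with 23873 bases between them. Krt7 is on the same chromosome at chr15:101241474-101260744 on the plus strand, and Krt19 is at chr11:100002124-100009979 on the minus strand. Sfn is at chr4:133156471-133158083, Anxa1 at chr19:20447918-20465434 and Tnfrsf12a at chr17:23812414-23814416, all on the minus strand. Lgals3 is at chr14:47987426-48005835, Anxa2 at chr9:69301427-69339602 and S100a6 at chr3:90416816-90418336, all on the plus strand.

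Promoter sequences of RefSeq (build GRCm38.p6) were matched for 9 of the 10 genes, not for Krt19, and read from 200 bases before to 10 bases after the annotated start. Each window was searched on both strands for 4 motifs. AP-1 was searched as TGANTCA. TEAD was searched as GGAATG. SP1 was searched as GGGCGG. The TATA box was searched as TATAAA. The windows of 5 genes are shown because they belong to the filament partners Krt8 and Krt18, to the type II keratin Krt7, which was called higher with BLM as they were, and to a pair of annexins of which Anxa1 was called higher with BLM and Anxa2 was not. Capitals mark matches to any of the 4 searches, which can overlap, on either strand. The windows are chr15:101412203-101412412 (plus strand) for Krt7, chr15:102004333-102004542 (minus) for Krt8, chr15:102028016-102028225 (plus) for Krt18, chr19:20390662-20390871 (minus) for Anxa1 and chr9:69453483-69453692 (plus) for Anxa2.
Krt7: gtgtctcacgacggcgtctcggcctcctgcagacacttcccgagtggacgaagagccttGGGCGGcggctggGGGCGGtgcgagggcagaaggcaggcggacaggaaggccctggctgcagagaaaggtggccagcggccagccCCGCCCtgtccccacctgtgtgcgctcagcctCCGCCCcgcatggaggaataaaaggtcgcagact
Krt8: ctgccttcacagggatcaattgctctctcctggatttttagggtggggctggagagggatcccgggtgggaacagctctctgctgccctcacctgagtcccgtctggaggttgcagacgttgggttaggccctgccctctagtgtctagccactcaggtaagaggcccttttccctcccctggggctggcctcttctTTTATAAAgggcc
Krt18: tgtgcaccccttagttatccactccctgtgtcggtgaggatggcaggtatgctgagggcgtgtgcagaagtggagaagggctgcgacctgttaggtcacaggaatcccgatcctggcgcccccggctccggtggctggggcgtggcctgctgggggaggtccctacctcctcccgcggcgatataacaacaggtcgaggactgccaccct
Anxa1: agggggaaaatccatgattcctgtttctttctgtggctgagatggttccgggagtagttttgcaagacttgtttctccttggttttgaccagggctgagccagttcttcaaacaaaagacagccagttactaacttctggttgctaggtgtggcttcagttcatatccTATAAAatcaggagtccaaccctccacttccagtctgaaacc
Anxa2: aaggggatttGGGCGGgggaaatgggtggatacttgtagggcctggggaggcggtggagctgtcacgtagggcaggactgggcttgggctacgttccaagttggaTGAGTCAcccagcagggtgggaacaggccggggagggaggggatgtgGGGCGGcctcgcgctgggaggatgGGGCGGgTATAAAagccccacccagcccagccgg
The SP1 letters were in 4 of the 9 windows (Krt7, Lgals3, Anxa2 and Tnfrsf12a), against 31.8% of 32851 promoter windows of this length. The TATA letters were in 3 (Krt8, Anxa1 and Anxa2, against 10.3%) and the AP-1 letters in 1 (Anxa2, against 5.76%). The TEAD letters were in 0 of 9 windows, against 10.6%. The filament partners Krt8 and Krt18 shared none of the 4 searched motifs. A match is a stretch of letters in this window and not a shown binding site.

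In AT2-PBS, Krt8, Anxa2 and Krt18 had the highest mean levels of the 10 genes. Krt8 was the highest at 369 ± 77.7 FPKM (SD, n = 3), followed by Anxa2 at 343 ± 53.1 FPKM and Krt18 at 266 ± 110 FPKM, whose ranges overlapped. Anxa1 (110 ± 40.8 FPKM), Lgals3 (103 ± 26.4), Tnfrsf12a (101 ± 74.2) and Krt7 (98.9 ± 13.5) overlapped with each other as neighbours in the order. Anxa1 did not overlap with Krt18, while Tnfrsf12a, whose samples spread from 41.1 to 184 FPKM, did. S100a6 (61.2 ± 21.9 FPKM), Krt19 (49.5 ± 6.95) and Sfn (31.4 ± 20.8) were the lowest, and S100a6 did not overlap with Krt7 but did with Anxa1 and Tnfrsf12a. Krt8 and Krt18 RNA was thus abundant without injury. In AT2-BLM the order was Krt8 (799 ± 405 FPKM), Anxa1 (694 ± 320), Anxa2 (476 ± 161), Krt18 (466 ± 212), Krt7 (396 ± 223), Lgals3 (365 ± 217), S100a6 (248 ± 297), Tnfrsf12a (227 ± 142), Sfn (185 ± 73.0) and Krt19 (151 ± 132). Every pair of neighbours in that order overlapped.

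**Figure D1:**
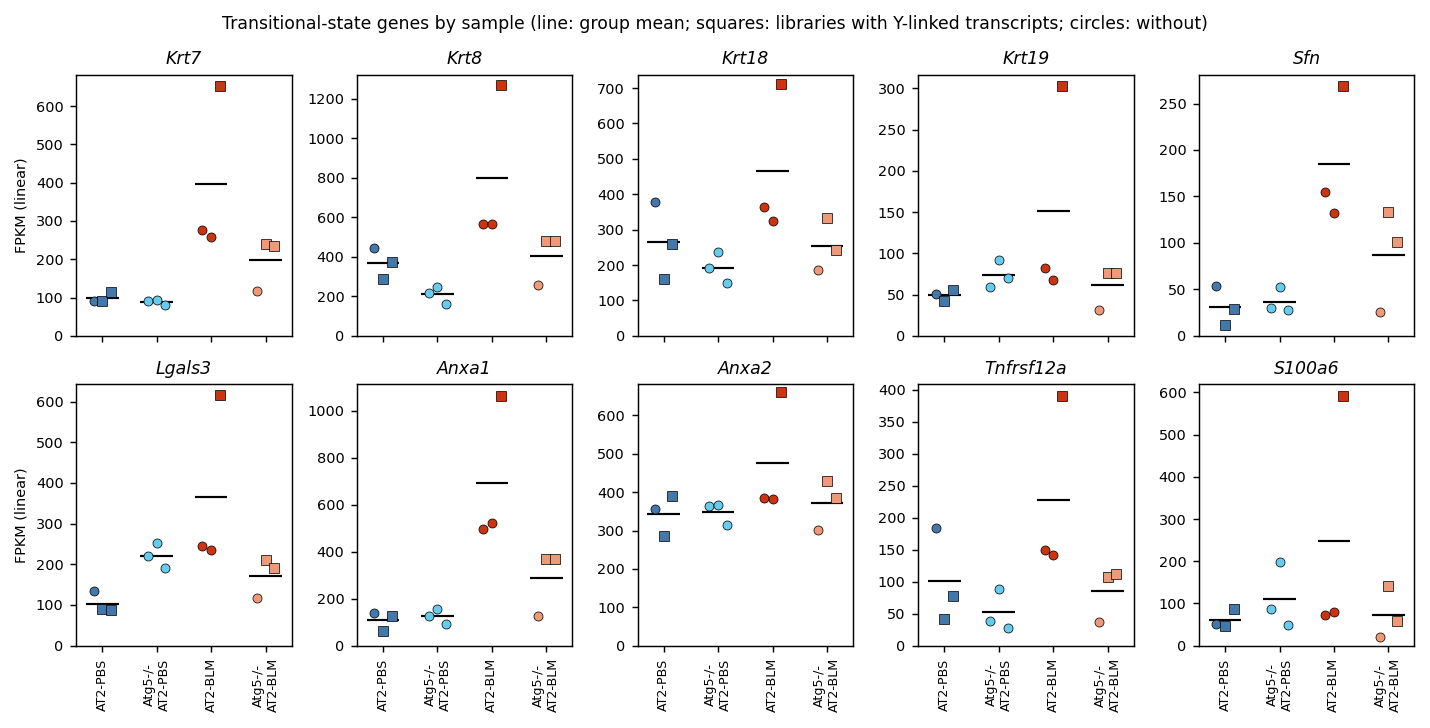
FPKM of the 10 genes (linear axes from 0) in each of the 12 samples, by group, with the group mean as a line and libraries with Y-linked transcripts as squares. AT2-BLM sample 3 is the highest sample of its group in all 10 panels, and Atg5-/- AT2-BLM sample 1 is the lowest of its group in all 10.

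The first comparison asked how BLM changed these genes in Atg5f/f cells. A single limma model of all 12 samples gave the changes on the log2(FPKM + 1) scale. A gene counts as called where p without adjustment is under 0.05 and the change is 1.4-fold or more, the study's criteria. This scale understates changes of low genes. All 4 keratins rose, with the highest estimate for Krt7. Krt7 was at 91.4, 90.8 and 114 FPKM in AT2-PBS samples 1 to 3, while AT2-BLM samples 1 to 3 held 277, 259 and 654 FPKM. Its samples did not overlap between the groups, and its log2 change was 1.86 (95% confidence interval 1.12 to 2.61, limma adjusted p = 0.00498). Krt8 was at 445, 290 and 373 FPKM in AT2-PBS and at 565, 566 and 1266 FPKM in AT2-BLM, where samples 1 and 2 were close to each other and sample 3 stood far above. Its log2 change was 1.02 (0.29 to 1.76), a 2.03-fold rise that missed the adjusted threshold (adjusted p = 0.055). Krt18, the filament partner of Krt8, was at 379, 159 and 260 FPKM in AT2-PBS and at 363, 325 and 710 FPKM in AT2-BLM. The groups overlapped, since AT2-PBS sample 1, the control library with liver and pancreas markers, was above AT2-BLM samples 1 and 2, and the log2 change was 0.80 (0.02 to 1.58, adjusted p = 0.136). Krt19 was at 50.7, 42.1 and 55.8 FPKM in AT2-PBS and at 82.3, 68.1 and 303 FPKM in AT2-BLM. Its groups did not overlap, and its log2 change was 1.26 (0.20 to 2.32, adjusted p = 0.0921).

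Of the other genes, Sfn and Anxa1 had the largest folds. Sfn, the p53 target, was at 53.4, 11.9 and 28.9 FPKM in AT2-PBS and at 154, 132 and 268 FPKM in AT2-BLM, a 6.43-fold rise (log2 change 2.68, 1.38 to 3.99, limma adjusted p = 0.0122). Anxa1 was at 141, 63.8 and 126 FPKM in AT2-PBS and at 498, 521 and 1062 FPKM in AT2-BLM, a 6.19-fold rise (log2 change 2.63, 1.66 to 3.60, adjusted p = 0.00333). Both were higher in each AT2-BLM sample than in any AT2-PBS sample. Lgals3 was at 134, 88.9 and 87.4 FPKM in AT2-PBS and at 245, 234 and 616 FPKM in AT2-BLM, and rose 3.22-fold without overlap (adjusted p = 0.00848). Of 16 tested leukocyte markers, 9 were also called higher with BLM in Atg5f/f cells, against 20.6% of all tested genes. With limma adjusted p under 0.05 it was 1 of 16, against 13.1%. The part of leukocytes in the Lgals3 rise was not tested. The other annexin, Anxa2, was at 356, 285 and 389 FPKM in AT2-PBS and at 384, 381 and 662 FPKM in AT2-BLM, and was not called (log2 change 0.43, -0.06 to 0.92). AT2-BLM samples 1 and 2 lay within the AT2-PBS range for this gene. The receptor gene Tnfrsf12a was at 184, 41.1 and 78.2 FPKM in AT2-PBS and at 149, 141 and 390 FPKM in AT2-BLM, with a log2 change of 1.25 (-0.08 to 2.59) that was not called. S100a6 was at 51.1, 46.1 and 86.3 FPKM in AT2-PBS and at 73.0, 79.1 and 590 FPKM in AT2-BLM, where 1 sample carried nearly all of the difference (log2 change 1.34, -0.46 to 3.15, not called).

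With BLM in Atg5f/f cells, 7 of the 10 genes were called higher and 0 lower, against 20.6% of all tested genes called higher and 7.77% called lower. The adjusted p over all tested genes was also under 0.05 for Krt7, Sfn, Lgals3 and Anxa1, 4 of 10, against 13.1% of all tested genes. The groups did not overlap for 6 of 10, against 28.9%. The median log2 change of the 10 genes was 1.30, and that of all tested genes was 0.17. Without AT2-BLM sample 3, 4 genes were called, Krt7 (log2 change 1.44), Sfn (2.38), Lgals3 (1.23) and Anxa1 (2.28), while Krt8 (0.64), Krt18 (0.45) and Krt19 (0.60) were not. Of all tested genes 1774 were then called higher, against 2202 with all libraries. AT2-PBS sample 1 was the highest of its group for Krt8, Krt18, Sfn, Lgals3, Anxa1 and Tnfrsf12a. Without it 8 were called (2358 of all tested genes were called higher), Tnfrsf12a (1.81) in addition, and Krt18 was at 1.10. The part of the liver and pancreas RNA in these levels was not tested. Of 7 tested airway markers, 5 were called lower with BLM in Atg5f/f cells, against 7.77% of all tested genes. The part of airway RNA in the levels of the 10 genes was not tested. With Y-linked transcripts as a covariate in limma, 9 were called higher, all but Tnfrsf12a, against 21.5% of all tested genes. The count was 4 with values scaled to Cdh1, the gene of the epithelial adhesion protein E-cadherin, and 989 of all tested genes were then called higher. In bulk samples, more cells in the state and more RNA per cell cannot be told apart.

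AT2-BLM sample 3 stood apart from the other AT2-BLM samples in more than these genes. It was the highest of its group for all 10, against 55.7% of all tested genes, and its level was between 1.73 times (Anxa2) and 7.76 times (S100a6) the mean of the other 2 samples. It was the AT2-BLM library with Y-linked transcripts. Its mesothelial markers summed to 64.5 FPKM, of which the defining marker Msln made 56.0, against 2.27 and 14.8 FPKM in samples 1 and 2. The defining mesothelial gene Wt1 was at 0.031 FPKM there. Its 10 fibroblast markers summed to 45.0 FPKM, against 11.1 and 17.6. Its 5 basal cell markers summed to 7.50 FPKM, against 0.0362 and 0.339 FPKM, with Krt15 at 4.23, Krt14 at 1.87 and Krt5 at 1.28 FPKM. The defining basal gene Trp63 was at 0.0146 FPKM there, against 0.0362 and 0.0244 FPKM. Basal markers also summed to 5.28 and 6.77 FPKM in Atg5-/- AT2-PBS samples 2 and 3. In AT2-BLM sample 3 the airway markers summed to 5012 FPKM, against 2196 and 908 FPKM in samples 1 and 2. The AT2-PBS sums were higher, at 5037 to 11971 FPKM. Scgb1a1 made 4921 FPKM of the sum in AT2-BLM sample 3. Scgb3a1, Scgb3a2 and Bpifa1 were also highest there, while Cyp2f2 (24.5 FPKM, against 104 and 59.7), Tppp3 and Dynlrb2 were lowest. The alveolar type 1 markers summed to 3835 FPKM, against 2898 and 2551, and the AT2 markers without Sftpc to 23949 FPKM, against 40941 and 40216. Of these AT2 markers, Napsa (3289 FPKM, against 2792 and 2923) and Abca3 (114 FPKM, against 82.3 and 100) were highest in sample 3. The rest of them were lowest there. The part of these cells in the keratin levels was not tested.

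**Figure D2:**
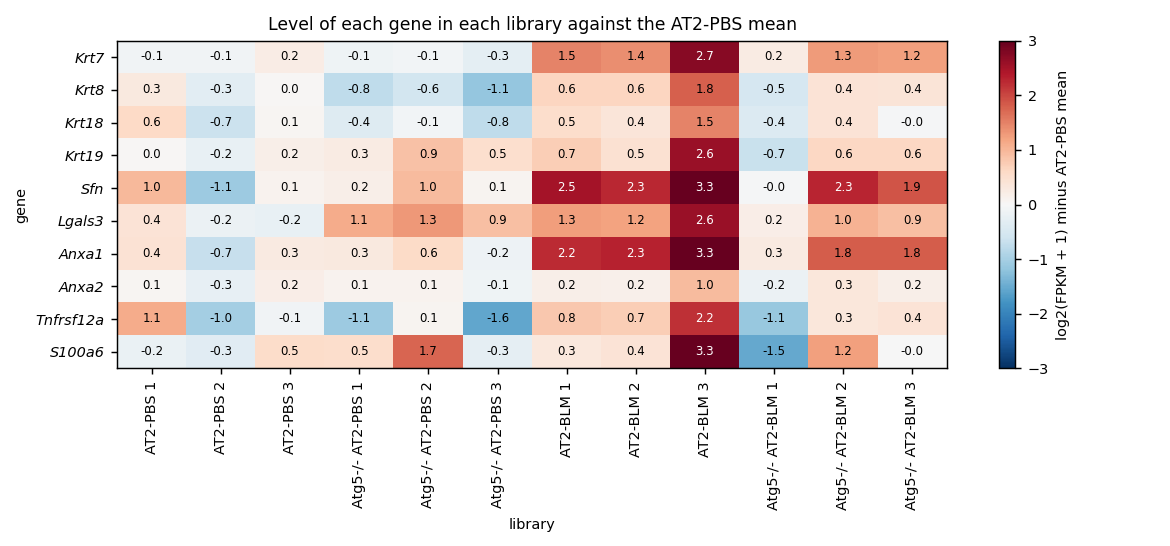
log2(FPKM + 1) of each gene (rows) in each library (columns) minus its mean in AT2-PBS, from blue (lower) to red (higher). The column of AT2-BLM sample 3 is the reddest, and the column of Atg5-/- AT2-BLM sample 1 lies within the PBS libraries for all but a few genes. The exceptions are S100a6 (19.6 FPKM) and Krt19 (30.8 FPKM), below every PBS library, and Krt7 (116 FPKM), above every PBS library. AT2-BLM samples 1 and 2 and Atg5-/- AT2-BLM samples 2 and 3 lie between these 2 columns.

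The second comparison, Atg5-/- AT2-BLM against AT2-BLM, asked how loss of Atg5 changed these genes during injury. At the study's criteria 8 of the 10 were lower (3.12% of all tested genes were called lower and 2.04% higher), and 0 passed the adjustment over all genes, against 0.00937% of all tested genes. Krt8 was at 255, 480 and 478 FPKM in Atg5-/- AT2-BLM samples 1 to 3, all below the AT2-BLM samples, and its log2 change was -0.93 (-1.66 to -0.19, limma adjusted p = 0.618). Krt7 was at 116, 241 and 234 FPKM, also below every AT2-BLM sample, with a log2 change of -0.94 (-1.69 to -0.20, adjusted p = 0.618). Krt18 was at 187, 333 and 243 FPKM and Krt19 at 30.8, 76.5 and 75.9 FPKM. Both overlapped with AT2-BLM, with log2 changes of -0.82 (adjusted p = 0.621) and -1.07 (adjusted p = 0.627). Sample 1 was the lowest for each of the 4 keratins.

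Anxa1 was at 126, 369 and 367 FPKM in Atg5-/- AT2-BLM, below every AT2-BLM sample, and sample 1 was within the AT2-PBS range. It fell by 1.33 on the log2 scale (limma adjusted p = 0.607). Lgals3 was at 116, 210 and 191 FPKM and Tnfrsf12a at 37.6, 107 and 112 FPKM, both below every AT2-BLM sample, with log2 changes of -0.97 (adjusted p = 0.618) and -1.38 (adjusted p = 0.621). Sfn was at 25.7, 134 and 101 FPKM and overlapped with AT2-BLM (log2 change -1.31, adjusted p = 0.631). Anxa2, at 302, 429 and 385 FPKM, and S100a6, at 19.6, 140 and 58.4 FPKM, also overlapped and were not called (log2 changes -0.32, -0.81 to 0.17, and -1.45, -3.25 to 0.36).

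The groups did not overlap for 5 of the 10 genes, against 8.49% of all tested genes. The median log2 change was -1.02 over the 10 genes and -0.05 over all tested genes. Leaving out either of 2 libraries ended all 8 calls. Atg5-/- AT2-BLM sample 1 was the lowest of its group for all 10 genes, against 36.1% of all tested genes, at between 0.197 times (S100a6) and 0.741 times (Anxa2) the mean of samples 2 and 3. It was also the only Atg5-/- AT2-BLM library without Y-linked transcripts. Both that and AT2-BLM sample 3 being the highest held for all 10 genes, against 21.8% of all tested genes. Without AT2-BLM sample 3 none of the 10 was called, and the same was found without Atg5-/- AT2-BLM sample 1. Of all tested genes 149 and 327 were called lower in these fits, against 333 with all libraries. The median log2 change of the 10 genes was then -0.52 and -0.63. Without both libraries, an alternative chosen after seeing the data, it was -0.25 with Krt19 at 0.025, Anxa2 at 0.088 and S100a6 at 0.25. With values scaled to Cdh1 the count was 0 as well, with a median of -0.85, and 92 of all tested genes were called lower.

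**Figure D3:**
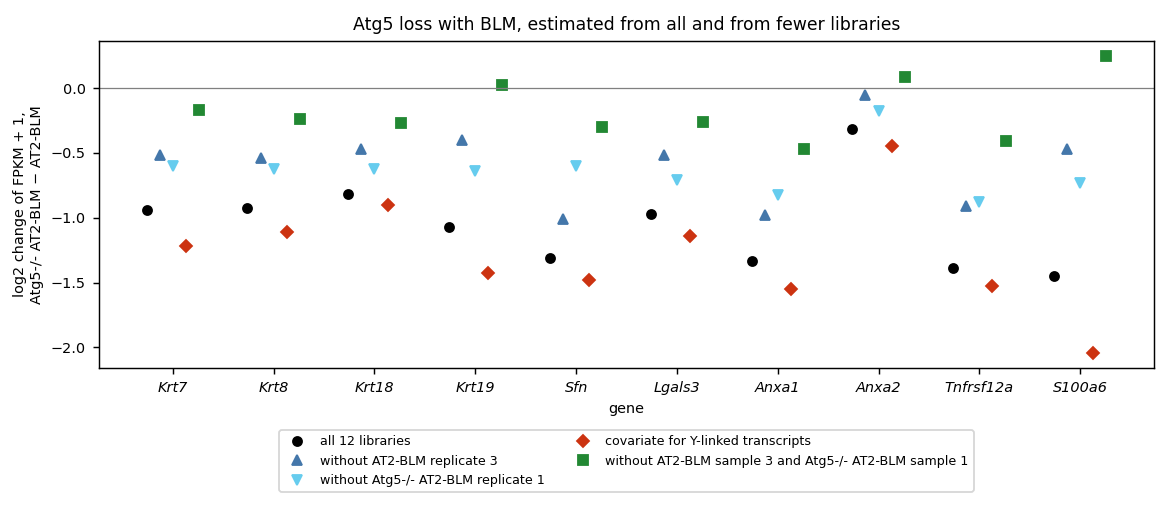
log2 change of each gene between Atg5-/- AT2-BLM and AT2-BLM, estimated from all 12 libraries, without either or both of the libraries at the extremes, and with a covariate for Y-linked transcripts. The estimates lie between -1.45 and -0.32 with all libraries and between -0.47 and 0.25 without both.

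Libraries with and without Y-linked transcripts were also compared separately, after seeing the data. Among libraries without them, Atg5-/- AT2-BLM sample 1 was below AT2-BLM samples 1 and 2 for all 10 genes, with differences from -0.34 (Anxa2) to -2.43 (Sfn) on the log2 scale. Among libraries with them, Atg5-/- AT2-BLM samples 2 and 3 were below AT2-BLM sample 3 for all 10 genes, with differences from -0.70 (Anxa2) to -2.69 (S100a6). All Atg5-/- samples were below in both sets for 20.9% of all tested genes. For Krt8 the differences were -1.15 and -1.40, and for Krt7 -1.20 and -1.46. Each set has 1 library on 1 side, so neither gives a test. That library is Atg5-/- AT2-BLM sample 1 or AT2-BLM sample 3, the 2 at the extremes, so the split is not independent of these extremes. A limma fit with the Y-linked transcripts as a covariate keeps both libraries. In it 9 genes had lower estimates that were called (4.75% of all tested genes), and Krt7 had the smallest adjusted p, 0.0994. The remaining gene, Anxa2, had a log2 change of -0.44.

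The third comparison, Atg5-/- AT2-PBS against AT2-PBS, asked about Atg5 loss without injury. Lgals3 was at 222, 253 and 190 FPKM in Atg5-/- AT2-PBS, above every AT2-PBS sample, and was called higher (log2 change 1.11, limma adjusted p = 0.0646). Galectin-3 is also a major product of macrophages, and in the same libraries all 16 tested leukocyte markers were called higher, Ptprc (the gene of CD45) at 7.54 to 8.46 FPKM against 0.0119 to 0.621 in AT2-PBS. The part of these cells in the Lgals3 level was not tested. Krt8 was at 215, 248 and 163 FPKM, below every AT2-PBS sample, and was called lower (log2 change -0.82, adjusted p = 0.167). These 2 calls compare with 14.1% of all tested genes called higher and 5.16% called lower. The count was 1 without any one of AT2-PBS sample 1 or 3 or Atg5-/- AT2-PBS sample 1 or 3. In these fits 1413 to 1664 of all tested genes were called higher and 436 to 615 lower. With the covariate for Y-linked transcripts, Krt8 (-0.46) was no longer called, and Lgals3 (1.45, limma adjusted p = 0.0238), Krt19 (1.26) and S100a6 (1.87) were called higher, 3 of 10 against 15.3% of all tested genes, and 0 lower against 5.61%. This comparison shares the AT2-PBS samples with the first.

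Without that covariate, the other 8 genes were not called with PBS. Krt7 was at 89.9, 93.5 and 79.6 FPKM, Krt18 at 191, 236 and 148 FPKM, Sfn at 30.1, 52.7 and 28.0 FPKM, and Anxa1 at 127, 157 and 93.6 FPKM. Krt19, at 59.0, 91.5 and 70.2 FPKM, was above every AT2-PBS sample with a log2 change of 0.55 (-0.51 to 1.61). Anxa2 was at 365, 366 and 313 FPKM, the gene closest between the genotypes (log2 change 0.03, -0.46 to 0.52). Tnfrsf12a was at 38.7, 89.1 and 28.0 FPKM and S100a6 at 85.7, 199 and 48.6 FPKM, both with samples spread widely within the group. The median log2 change over the 10 genes was 0.13 and that over all tested genes 0.02.

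The fourth comparison set Atg5-/- AT2-BLM against Atg5-/- AT2-PBS, groups that the comparisons above also use. The Atg5-/- AT2-PBS libraries are those that carried RNA of other cells. Called lower here were 16 of 16 tested leukocyte, 7 of 7 airway and 6 of 7 fibroblast markers, against 10.7% of all tested genes. The part of these cells in the changes that follow was not tested. Krt7 (log2 change 1.09, limma adjusted p = 0.0722), Krt8 (0.91, adjusted p = 0.129) and Anxa1 (1.06, adjusted p = 0.184) were called higher, 3 of 10 against 7.66% of all tested genes, and 0 passed the adjustment, against 8.65%. Every Atg5-/- AT2-BLM sample was above every Atg5-/- AT2-PBS sample for 2 of 10 genes, Krt7 and Krt8, against 13.1% of all tested genes, although Krt7 in sample 1, at 116 FPKM, was close to the highest Atg5-/- AT2-PBS sample, at 93.5 FPKM. Krt8 after BLM, at 405 ± 129 FPKM (SD, n = 3), was near its AT2-PBS level of 369 ± 77.7 FPKM, a pair of groups that was not tested. Anxa1 sample 1, at 126 FPKM, lay within the Atg5-/- AT2-PBS range. Estimates for Krt19 (-0.35), Lgals3 (-0.40) and S100a6 (-0.77) were below 0 and were not called. Without Atg5-/- AT2-BLM sample 2 or 3 or Atg5-/- AT2-PBS sample 3, 1 of the 10 genes was called, and with scaling to Cdh1, 0 were. Of all tested genes 1139, 568 and 905 were called higher in these fits, and 118 with scaling to Cdh1. With the covariate for Y-linked transcripts, Krt7 was called higher (log2 change 0.54, 1 of 10 against 7.55% of all tested genes), Krt19 (-1.07) and S100a6 (-1.97) were called lower (2 of 10 against 10.1%), and Krt8 (0.55) and Anxa1 (0.63) were no longer called.

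The difference between the BLM effects of the genotypes was tested in the same fit. It was called for 3 of 10 genes, all with a smaller BLM effect in Atg5-/- cells, against 15.2% of all tested genes called in that direction. For Lgals3 the difference was -2.08 (-3.15 to -1.01, limma adjusted p = 0.0231, which 7.11% of all tested genes passed in this direction), from a BLM effect of 1.69 in Atg5f/f cells and -0.40 in Atg5-/- cells. Krt19 (-1.62, adjusted p = 0.202) and Anxa1 (-1.57, adjusted p = 0.17) did not pass the adjustment. The difference for Lgals3 includes its higher level in Atg5-/- AT2-PBS, the libraries with leukocyte markers. For Krt8 the difference was -0.11 with an interval from -1.15 to 0.93, which leaves room for a large difference in either direction, and it was above 0 under quantile normalization (0.11). The median over the 10 genes was -1.17 and that over all tested genes -0.09. The count of 3 was 1 without any one of AT2-PBS sample 2, Atg5-/- AT2-PBS sample 2, AT2-BLM sample 3 or Atg5-/- AT2-BLM sample 1. In these fits 1443 to 1492 of all tested genes were called lower. Without Atg5-/- AT2-BLM sample 2 the count was 5, and 1781 of all tested genes were called lower. With the covariate for Y-linked transcripts, 7 genes were called (17% of all tested genes), and Krt7 (-1.60, adjusted p = 0.0222), Krt19 (-2.69, adjusted p = 0.02), Lgals3 (-2.60, adjusted p = 0.0161) and S100a6 (-3.91, adjusted p = 0.0392) passed the adjustment, 4 of 10 against 5.64%. No Atg5-/- AT2-PBS library had Y-linked transcripts, so the covariate was estimated from the other groups.

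**Figure D4:**
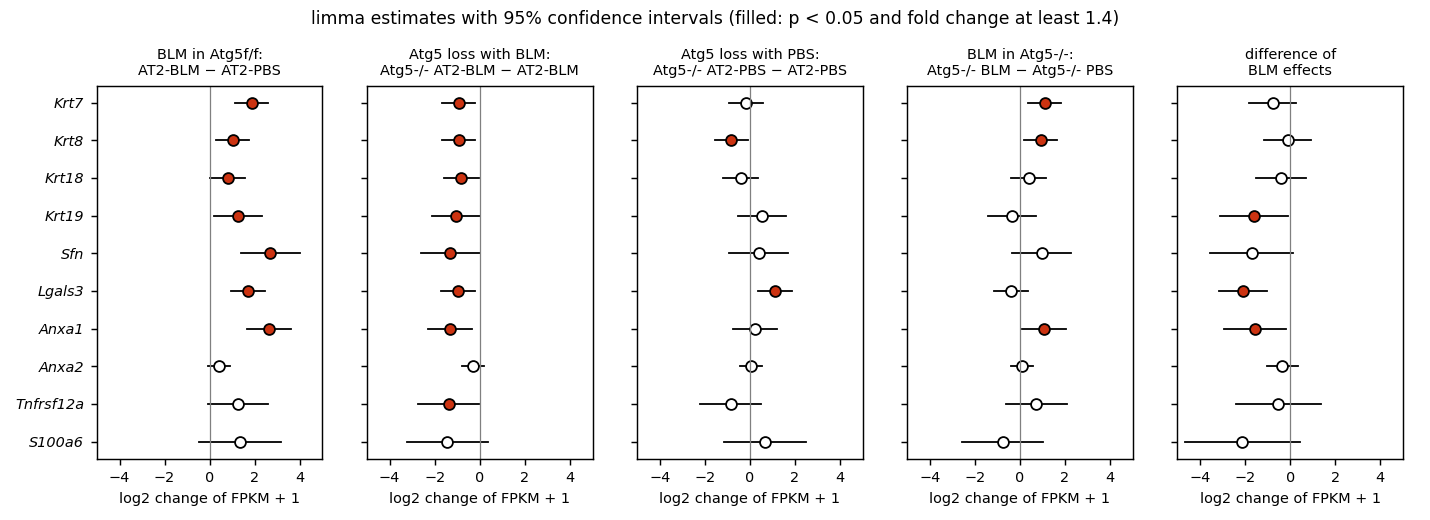
limma estimates (points) with 95% confidence intervals (bars) of the log2 change of FPKM + 1 in the 4 comparisons and of the difference of BLM effects, for the 10 genes. Filled points met the study's criteria, 7 of 10 with BLM in Atg5f/f cells and 8 of 10 with Atg5 loss during BLM.

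Ratios of keratins within a library, of the filament partners Krt8 to Krt18, of the type II keratins Krt7 to Krt8 and of the type I keratins Krt19 to Krt18, do not depend on scaling between libraries. In 12 comparisons, 3 ratios in 4 pairs of groups, an exact permutation test of 3 samples against 3 could not give a p below 0.1. Krt7 to Krt8 was 0.205, 0.313 and 0.306 in AT2-PBS samples 1 to 3 and 0.489, 0.457 and 0.516 in AT2-BLM, higher in 3 of 3 samples (log2 difference 0.85, exact permutation p = 0.1, adjusted over the 12 p = 0.24). It was 0.417, 0.377 and 0.487 in Atg5-/- AT2-PBS, also above every AT2-PBS sample (log2 difference 0.65, exact permutation p = 0.1), and 0.455, 0.502 and 0.489 in Atg5-/- AT2-BLM. In the 9 libraries of the groups other than AT2-PBS it ran from 0.377 to 0.516. Between the BLM groups the Krt7 to Krt8 ratio differed by -0.02 on the log2 scale, while both genes were called lower in Atg5-/- AT2-BLM.

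Krt8 to Krt18 was 1.13, 1.05 and 1.10 in Atg5-/- AT2-PBS, below the 1.18, 1.82 and 1.43 of AT2-PBS (log2 difference -0.41, exact permutation p = 0.1) and below the 1.36, 1.44 and 1.97 of Atg5-/- AT2-BLM (log2 difference 0.52 with BLM, exact permutation p = 0.1). It was 1.56, 1.74 and 1.78 in AT2-BLM, within the range of AT2-PBS. The RNA of the type II partner exceeded that of the type I partner in all 12 libraries. Krt19 to Krt18 was 0.309, 0.388 and 0.474 in Atg5-/- AT2-PBS and 0.134, 0.264 and 0.214 in AT2-PBS (log2 difference 0.97, exact permutation p = 0.1). In AT2-BLM it was 0.227, 0.209 and 0.427, with sample 3 apart from the other samples. All adjusted values were 0.24 or above. Ratios within a library can still depend on its mix of cells. Airway markers summed to 25512 to 85518 FPKM in Atg5-/- AT2-PBS, against 5037 to 11971 FPKM in AT2-PBS. The part of other cells in the keratin ratios was not tested.

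**Figure D5:**
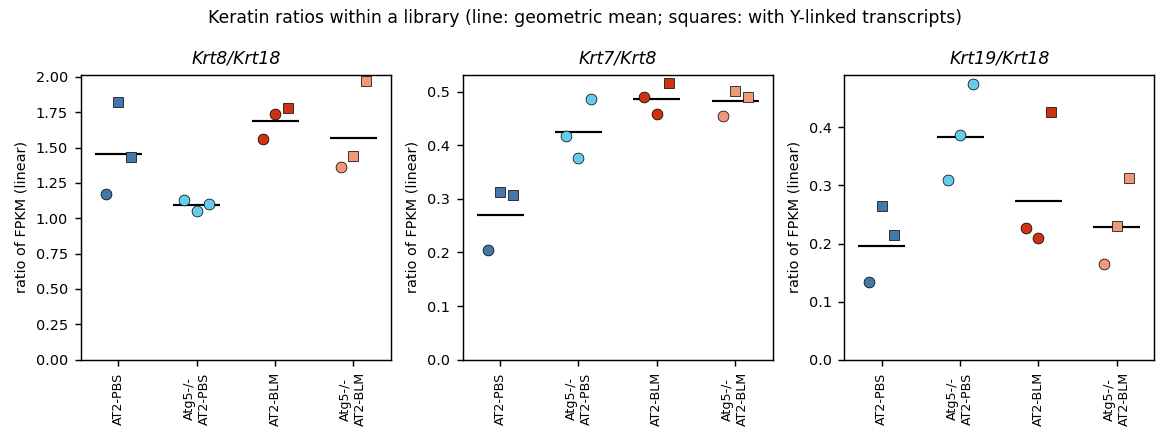
Ratios of FPKM between keratins within each library (linear axes from 0), by group, with the geometric mean as a line. Krt7 to Krt8 is lower in the 3 AT2-PBS libraries, at 0.205 to 0.313, than in the 9 others.

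The levels of the 10 genes were positively correlated from library to library. Pearson's r of log2(FPKM + 1) between pairs of them, over 12 samples that include the group differences, had a median of 0.81 over 45 pairs and ran from 0.55 to 0.97. Against Krt8, Krt18 and Tnfrsf12a (both 0.93) had ranks 3 and 4 among all other tested genes, Krt7 (0.91) had rank 16 and Anxa1 (0.87) rank 63. Krt19 (0.67), S100a6 (0.59) and Lgals3 (0.55) followed Krt8 least. Of genes outside the 10, Psmd1 (0.95), a proteasome subunit, Fstl3 (0.94), a follistatin-like binder of activin, Tmem43 (0.93), Glrx (0.92), the redox enzyme glutaredoxin, and Tpm4 (0.92), a tropomyosin of the actin cytoskeleton, were most like Krt8. These correlations describe 12 libraries, 2 of which stand at the extremes, and genes of 1 library share its depth and scaling.

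A list of 20 further genes of the transitional state was read beside the 10 genes. With BLM in Atg5f/f cells 13 of 20 were called higher (11 with limma adjusted p under 0.05) and 0 lower, with a median log2 change of 1.27. Over all tested genes 20.6% were called higher (13.1% with the adjusted p) and 7.77% lower, with a median of 0.17. Cldn4, a tight junction claudin, was at 3.34, 3.45 and 2.78 FPKM in AT2-PBS and at 68.7, 52.9 and 228 FPKM in AT2-BLM (log2 change 4.51, adjusted p = 0.00112). Gdf15, a stress cytokine, changed by 3.83, Plaur, the urokinase receptor, by 2.94, and Cdkn1a, the cell cycle inhibitor p21, by 2.92 on the log2 scale. With Atg5 loss during BLM 9 of 20 were called lower and 0 higher, against 3.12% and 2.04% of all tested genes, with a median of -0.88 against -0.05. Cldn4 was at 6.43, 21.5 and 14.6 FPKM in Atg5-/- AT2-BLM, below every AT2-BLM sample (log2 change -2.79, adjusted p = 0.511), and Sprr1a, a cornified envelope protein, changed by -1.81. Cdkn1a was at 107, 131 and 137 FPKM in Atg5-/- AT2-BLM, against 303, 238 and 276 FPKM in AT2-BLM, and here AT2-BLM sample 3 was not the highest of its group. Gdf15 in AT2-BLM was at 223, 219 and 140 FPKM, with sample 3 the lowest, while Atg5-/- AT2-BLM held 87.6, 97.6 and 56.5 FPKM. Atg5-/- AT2-PBS was above AT2-PBS for Plaur (log2 change 4.48), Lgals1 (3.92) and Gdf15 (2.84), genes that leukocytes also express. With BLM in Atg5-/- cells 6 of 20 were called higher and 3 lower, against 7.66% and 10.7% of all tested genes.

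Of 49 other keratin genes, 7 passed the filter. Krt23 was the most abundant of these, at 166, 115 and 161 FPKM in AT2-PBS, and was called lower with BLM (log2 change -0.89, limma adjusted p = 0.0278). Krt80 rose with BLM by 1.06 (adjusted p = 0.0146) and was called lower with Atg5 loss during BLM (-0.80). Krt17, a keratin of wounded epithelia, was listed at 0 in all AT2-PBS samples and at 1.16, 1.67 and 1.44 FPKM in AT2-BLM, while Atg5-/- AT2-BLM held 0, 0.243 and 0 FPKM. The basal keratins Krt5 and Krt14 were at 0.658 FPKM or less in all libraries other than AT2-BLM sample 3. In Atg5-/- AT2-PBS, Krt79 was at 24.3, 22.3 and 30.6 FPKM against at most 0.968 FPKM in AT2-PBS.

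The counts for relatives of the non-keratin genes are read against the 20.6% of all tested genes called higher and the 7.77% called lower with BLM in Atg5f/f cells. Of 8 tested other annexins, 5 were called higher. Anxa3 was at 166, 199 and 241 FPKM in AT2-PBS and at 505, 505 and 661 FPKM in AT2-BLM (log2 change 1.46, limma adjusted p = 0.00147). Atg5-/- AT2-BLM held 215, 342 and 357 FPKM of it (-0.89, adjusted p = 0.572). Anxa8 changed by 2.43 with BLM and by -1.84 with Atg5 loss during BLM. Of 9 tested S100A genes, 3 were called higher with BLM, S100a4 (2.08), S100a14 (1.19) and S100a11 (1.13), and S100a8 and S100a9, which are genes of neutrophils, were called higher in Atg5-/- AT2-PBS. Of 4 tested galectins, Lgals1 (2.26) and Lgals9 (1.28) were called higher and Lgals4 (-1.01) lower with BLM. The part of leukocytes in the rises of Lgals1 and S100a4 was not tested. Among the 6 other 14-3-3 genes, Ywhag (0.94, adjusted p = 0.00249) and Ywhah (0.62, adjusted p = 0.0388) were called higher with BLM. With Atg5 loss during BLM 0 of 6 were called, against 5.16% of all tested genes.

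The desmosome and keratin linker genes anchor the filaments at cell contacts. Of 9 tested, 3 were called higher with BLM in Atg5f/f cells, against 20.6% of all tested genes. These were Eppk1 (0.97), Pkp3 (0.72) and Pkp2 (0.54), and 1, Pkp4 (-0.57), was called lower, against 7.77%. With Atg5 loss during BLM 0 of 9 were called, against 5.16% of all tested genes. In the Fn14 pathway, the ligand gene Tnfsf12 was at 2.16, 3.09 and 5.22 FPKM in AT2-PBS and at 1.15, 1.48 and 2.01 FPKM in AT2-BLM, and was called lower (log2 change -0.77, limma adjusted p = 0.0884). Of its downstream genes, the noncanonical NF-kB subunits Relb (1.31, adjusted p = 0.00361) and Nfkb2 (0.97, adjusted p = 0.00256) were called higher and the adaptor Traf1 (-0.99) lower with BLM. Relb was at 12.9, 11.5 and 11.5 FPKM in AT2-BLM, while Atg5-/- AT2-BLM held 8.33, 5.36 and 6.44 FPKM (log2 change -0.77, adjusted p = 0.607).

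Of the alveolar type 1 markers, which the transitional state leads to, 6 of 9 were called higher with BLM in Atg5f/f cells, against 20.6% of all tested genes. Pdpn rose by 3.26 and Hopx by 2.10 on the log2 scale. With Atg5 loss during BLM 2 of 9 were called lower, against 3.12%, Hopx (-0.79) and Cav1 (-0.68). With BLM in Atg5-/- cells 7 of 9 were called higher, against 7.66% of all tested genes. The median log2 change of these markers with BLM was 0.79 in Atg5f/f cells and 0.68 in Atg5-/- cells. The difference of BLM effects was called lower for 3 of 9, against 15.2%, with a median of -0.03. The p53 target Mdm2, named after its values were seen, changed by 0.88 with BLM in Atg5f/f cells and by -0.64 with Atg5 loss during BLM. It was called in both, as Sfn was. Cdkn1a and Gdf15 were called in both as well, but they differed from Sfn elsewhere. They were also called higher with Atg5 loss with PBS (1.15 and 2.84). The difference of BLM effects was called for them (-2.27 and -4.10) and not for Sfn. A shared regulation of these genes was not tested.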

How the data were processed

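The authors sequenced stranded mRNA libraries of sorted AT2 cells, trimmed reads with Trimmomatic, aligned them to mm9 and computed gene FPKM with Cufflinks, and the deposited values are FPKM per gene and sample. The methods name STAR as the aligner, and the submitters' processing notes list Trimmomatic 0.36, HISAT2 2.2.1.0, HTSeq 0.9.1 and Cufflinks 2.2.1. A DESeq normalization is described, and whether the deposited FPKM include it is not stated. Samples were grouped by their titles (AT2-PBS sample 3 has another number in its description).

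Genes at 1 FPKM or more in 3 or more samples (10675) were analysed on the log2(FPKM + 1) scale with limma 3.58.1 (lmFit, eBayes with a mean-variance trend) in R 4.3.3, with Benjamini-Hochberg adjustment over these genes. Intervals are 95% confidence intervals. Keratin ratios were compared with exact two-sided permutation tests in scipy 1.17.1 under Python 3.11.15, and figures drawn with matplotlib 3.10.9. The fit was tested on simulated data. Relative depths came from the ratio at which low FPKM of 2 libraries piled up. Absolute depth is unknown, so no counting intervals are given.

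Genes named are the 10 members, up to 4 called genes per other list with the largest change with BLM in Atg5f/f cells and up to 2 more per other comparison, cell markers, and the 5 genes most correlated with Krt8. Some genes that met this rule are counted and not described. Pdpn, Hopx, Cav1, Mdm2, S100a8 and S100a9 were named after their values were seen. The members and all lists were chosen with earlier results of these data known. Motifs were searched in RefSeq promoters (GRCm38.p6), and gene coordinates are those of GENCODE for mm9.

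Alternatives were a replicate block, each sample left out, a pseudocount of 0.1, no filter, scaling to Cdh1, median-ratio scaling, quantile normalization, no trend, a fit of the compared groups alone, adjusted p and a fold of at least 2. Leaving out both extreme BLM libraries and a covariate for Y-linked transcripts (Ddx3y of at least 1 FPKM) were chosen after seeing the data.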

Additional observations from a re-analysis of the deposited data

Results flagged for a closer look

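The BLM effect differed between the genotypes for 3 of the 10 genes at the study's criteria, by a test of the difference itself in limma. They are flagged because that test called them, as it called 15.2% of all tested genes in the same direction. The difference (Atg5-/- minus Atg5f/f, log2 scale) was -2.08 for Lgals3, -1.62 for Krt19 and -1.57 for Anxa1. Lgals3 passed the adjustment (limma adjusted p = 0.0231), and Krt19 (0.202) and Anxa1 (0.17) did not. The count was 1 without any one of AT2-PBS sample 2, Atg5-/- AT2-PBS sample 2, AT2-BLM sample 3 or Atg5-/- AT2-BLM sample 1. Lgals3 moved from 103 ± 26.4 to 365 ± 217 FPKM with BLM in Atg5f/f cells and from 221 ± 31.4 to 172 ± 49.7 FPKM in Atg5-/- cells (SD, n = 3). For Krt19 the means were 49.5 and 151 FPKM in Atg5f/f cells and 73.6 and 61.1 FPKM in Atg5-/- cells, and for Anxa1 they were 110 and 694 FPKM and 126 and 287 FPKM. Leukocyte markers were higher in Atg5-/- AT2-PBS, 1 of the 4 groups in this difference, and their part in it was not tested.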

How the results depend on the processing

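The numbers of called genes among the 10 depended on few libraries. With each library left out in turn they ran from 4 to 8 for BLM in Atg5f/f cells (7 with all), from 0 to 9 for Atg5 loss with BLM (8), from 1 to 2 for Atg5 loss with PBS (2), from 1 to 4 for BLM in Atg5-/- cells (3) and from 1 to 5 for the difference of BLM effects (3). Calls over all tested genes ran from 1774 to 2358 higher in the first comparison and from 149 to 500 lower in the second. They ran from 1316 to 1664 higher and from 391 to 615 lower for Atg5 loss with PBS. For BLM in Atg5-/- cells 568 to 1139 were higher, and for the difference 1443 to 1781 were lower. Among the 10, the counts at an adjusted p under 0.05 were 4, 0, 0, 0 and 1, and with scaling to Cdh1 the first 4 were 4, 0, 1 and 0. For Atg5 loss with BLM the count was 4 with no filter, 5 with only the compared groups, 4 at a fold of at least 2 and 0 without AT2-BLM sample 3 and Atg5-/- AT2-BLM sample 1. Over all tested genes 328 (of 17615), 318, 75 and 181 were called lower in these settings. At a fold of at least 2 the count among the 10 was 1 for Atg5 loss with PBS, and 1043 of all tested genes were called higher and 70 lower. For the difference of BLM effects it was 7 with the covariate for Y-linked transcripts (1811 of all tested genes called lower) and 1 without both extreme libraries (1347). With no filter more genes are tested and share the estimate of spread. The cause of the other shifts was not tested.

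The replicate numbers were not shown to pair the samples, since the correlation of deviations of same-numbered samples was over 0.1 in 4 of 18 pairs (-0.30 to 0.23). With a replicate block, 6, 5, 2, 3 and 3 genes were called.

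Single estimates reversed in sign as follows, none of them called. For Atg5 loss with BLM without both extreme libraries, Krt19 was 0.025, Anxa2 0.088 and S100a6 0.25. For Atg5 loss with PBS, Anxa2 was -0.14 under quantile normalization, -0.016 under median-ratio scaling and -0.099 to 0.12 with single libraries left out. Krt7 was 0.23 with scaling to Cdh1 and 0.38 with the covariate for Y-linked transcripts, and with single libraries left out Sfn ran from -0.15 to 0.89 and Anxa1 from -0.11 to 0.45, below 0 without AT2-PBS sample 2. For BLM in Atg5-/- cells, scaling to Cdh1 gave -0.068 for Krt18 and -0.38 for Anxa2, Anxa2 was -0.17 with the covariate and from -0.026 to 0.23 with single libraries left out, and Krt19 ran from -0.57 to 0.074, the highest value being that without Atg5-/- AT2-BLM sample 1, alone or with AT2-BLM sample 3. The difference of BLM effects for Krt8 was 0.11 under quantile normalization, between -0.30 and 0.28 with single libraries left out and 0.58 without both extreme libraries, where Krt18 was 0.14, Anxa2 0.060 and Tnfrsf12a 0.45.

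Keratin ratios kept their direction in 81 of 84 alternatives. Leaving out single libraries, log2 differences between the BLM groups ran from -0.061 to 0.026 for Krt7 to Krt8 and from -0.49 to 0.063 for Krt19 to Krt18. Without read counts, depth sets no interval here. Quantile normalization moved the median change of all tested genes with BLM in Atg5f/f cells from 0.17 to -0.02 and the calls over all genes from 2202 higher and 829 lower to 1235 and 1398 (1467 and 1303 with median-ratio scaling, 989 and 1295 with scaling to Cdh1), and the median of the 10 genes from 1.30 to 1.08.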
